A study of Mus musculus with 4 samples.

Results

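The 8 genes described here, *Pck1*, *G6pc*, *Fbp1*, *Pcx*, *Ppargc1a*, *Pklr*, *Slc2a2* and *Khk*, serve glucose production and sugar use in hepatocytes. They were chosen by symbol from the 20642 gene symbols of a table of polymerase reads, where each has 1 transcript, and all 8 were among the 12705 active genes. The reads come from PRO-seq (precision nuclear run-on sequencing), which marks the RNA made by engaged polymerases in isolated nuclei, and so measures transcription rather than steady-state mRNA. The 4 libraries are livers of C57BL/6 mice taken on day 14, 2 of genotype Alb-Cre+ *Hdac3*+/+ (WT1 and WT2) and 2 of genotype Alb-Cre+ *Hdac3* fl/- or fl/fl (KO1 and KO2). Both genotypes carry Cre under the albumin promoter, which is active in the hepatocyte lineage, so the KO is not a deletion in every cell of the liver. HDAC3 is a histone deacetylase that works in corepressor complexes of nuclear receptors. Each library is a pool of nuclei from 9 mice, and the share of fl/- and fl/fl mice in the KO pools is not given in the sources used here.

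Between meals the liver makes glucose from lactate, amino acids and glycerol. PCX, pyruvate carboxylase, makes oxaloacetate in mitochondria, PCK1 turns oxaloacetate into phosphoenolpyruvate, FBP1 removes a phosphate from fructose bisphosphate, and G6PC frees glucose from its phosphate. PPARGC1A (PGC-1alpha) is a coactivator that raises this program in fasting, when glucagon acts through cAMP. In the fed state PKLR, the liver pyruvate kinase, closes glycolysis, SLC2A2 (GLUT2) carries glucose across the hepatocyte membrane, and KHK, ketohexokinase, phosphorylates fructose.

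The promoters of the 4 enzymes that carry pyruvate to glucose are shown because polymerase on all 4 of their gene bodies fell in KO (below). The bases upstream of the start come from RefSeq (GRCm38.p6), read 5' to 3' on the strand of the gene, and stop before the start of the counted transcript. The stretches are chr2:173152823-173153047 (plus strand) for *Pck1*, chr11:101367466-101367560 (plus) for *G6pc*, chr13:62888283-62888532 (minus) for *Fbp1* and chr19:4510222-4510471 (plus) for *Pcx*. Capitals mark matches to short motifs searched on both strands. The core promoter box was searched as TATAAA. The letters CCAAT stand for a more distant promoter element of that name. The cAMP response element (CRE) was searched in a short form, TGACG, and in full, TGACGTCA. The letters for forkhead factors were GTAAACA, those for nuclear receptors AGGTCA, and those for the E-box CACGTG.
Pck1: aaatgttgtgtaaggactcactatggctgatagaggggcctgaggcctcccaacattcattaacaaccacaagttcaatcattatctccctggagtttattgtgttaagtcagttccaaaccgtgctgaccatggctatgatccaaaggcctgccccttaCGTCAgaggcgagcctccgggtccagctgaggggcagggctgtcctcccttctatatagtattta
G6pc: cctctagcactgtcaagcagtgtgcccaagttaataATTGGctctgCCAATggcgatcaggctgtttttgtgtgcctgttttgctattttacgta
Fbp1: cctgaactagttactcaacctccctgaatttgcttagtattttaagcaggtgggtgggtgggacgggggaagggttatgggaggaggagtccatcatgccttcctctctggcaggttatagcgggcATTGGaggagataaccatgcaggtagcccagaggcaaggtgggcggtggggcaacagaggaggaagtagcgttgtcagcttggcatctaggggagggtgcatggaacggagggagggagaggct
Pcx: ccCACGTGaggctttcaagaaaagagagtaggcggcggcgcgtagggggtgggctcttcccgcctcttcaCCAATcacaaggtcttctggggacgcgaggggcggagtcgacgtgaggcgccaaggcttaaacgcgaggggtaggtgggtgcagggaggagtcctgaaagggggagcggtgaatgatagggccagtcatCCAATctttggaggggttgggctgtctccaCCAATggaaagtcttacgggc

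Positions are given as bases upstream of the RefSeq start. The *Pck1* promoter held the short CRE at 90 bases, on the opposite strand. The *G6pc* promoter held CCAAT at 214 and 204 bases, and the part not printed here held AGGTCA at 54 and TATAAA at 29 bases. *Fbp1* held CCAAT at 124 bases, and *Pcx* held CCAAT at 180, 51 and 21 bases beside an E-box at 248 bases. In windows of 250 bases, the short CRE was found for 3 of the 8 genes (*Pck1*, *Ppargc1a* and *Khk*) and in 17.8% of 32851 RefSeq windows (26.1% of the 11588 windows of active genes). The only RefSeq window of *Ppargc1a* lies 13803 bp upstream of the transcript counted. In *Khk* the short CRE, at 74 bases, overlapped an E-box at 71 bases. CCAAT was found for 4 of 8 genes against 33.8% of all windows and 35.2% of those of active genes. AGGTCA was found for 3 (*G6pc*, *Pklr* and *Slc2a2*) against 14.0% and 11.2%, the E-box for 2 against 6.02% and 8.12%, and TATAAA for 1 against 12.4% and 6.71%. The full CRE (1.55% and 2.55%) and the forkhead letters (3.17% and 2.21%) were found in none of the 8. A match in letters describes the window and does not show that a factor binds there.

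The deposited values are reads per transcript in 2 regions. The promoter-proximal value is the count in the 50 bp window with most reads within 500 bp of the start, and the gene body value is the count from 1 kb downstream of the start to the end of the transcript. The authors multiplied both by 1 factor per library, between 1 (WT2) and 1.52 (KO2), and these products are called normalized reads here. Undoing the factors gave 16628518 (KO2) to 26190040 (WT2) whole reads on genes. Promoter-proximal windows took 9.38% to 10.3% of them in WT and 13.6% to 17.0% in KO, so a promoter-proximal change has to be read against a shift of all genes. Log2 fold changes are KO over WT on the scale of log2(normalized reads + 1), and each comes with its standard error (SE) and the p that limma gave, adjusted over the active genes by the Benjamini-Hochberg method. To be called, a gene had to pass an adjusted p of 0.05 and move by over 0.6 in log2. The median active gene changed by -0.09 in the gene body and by 0.56 at the promoter-proximal region. Every test rests on 2 pools of mice per genotype, and 0.333 is the smallest two-sided p of an exact permutation test of 2 against 2.

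Reads on *Hdac3* did not show the deletion, so the genotypes rest on the labels. The gene body of *Hdac3* held between 582 and 665 normalized reads per library, and its changes were -0.14 (limma adjusted p = 0.413) in the gene body and 0.38 (limma adjusted p = 0.370) at the promoter. The latter was -0.073 without KO2.

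Markers of liver cell types also moved. Of the 6 hepatocyte markers listed, 5 were measured, and *Alb*, *Apoa1* and *Serpina1a* were called down in the gene body. The markers summed to 112615 and 122456 normalized reads in WT and to 67214 and 67195 in KO, 57.2% of WT. All 6 hepatic stellate cell markers were called up, from sums of 9470 and 10710 in WT to 20775 and 19053 in KO. Of 5 endothelial markers, *Kdr*, *Stab2* and *Lyve1* were called up, from sums of 51483 and 56027 to 96211 and 85946. None of 5 Kupffer cell markers was called (sums 15945 and 16346 in WT, 20986 and 17529 in KO). Of 4 lymphocyte markers 1 was up (*Cd3e*) and 1 down (4424 and 4181, 6117 and 4921). Of 5 cholangiocyte markers, 2 (*Epcam* and *Krt7*) were not active and *Sox9* was called down (158 and 208, 182 and 152). Of 5 erythroid markers measured, 3 were called down, *Alas2* and *Slc4a1* among them (646 and 826, 302 and 237). In such bulk libraries, fewer cells of a type and less RNA per cell cannot be told apart. The part of these shifts in the changes of the glucose genes was not tested.

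Polymerase in the gene body fell at 6 of the 8 genes in KO liver. *Ppargc1a* kept 21.4% of its WT level, *Fbp1*, *Pck1* and *G6pc* about the same share of theirs (33.0%, 33.3% and 33.4%), *Pcx* 52.6% and *Pklr* 59.6%. *Slc2a2*, at 66.9%, missed the threshold on fold, and *Khk* stayed at 92.0%. No gene of the group rose. Among the 12705 active genes, 11.4% were called down and 10.4% up. The median log2 fold change of the 8 genes was -1.25. In all 8, both KO libraries lay below both WT libraries, which was so for 42.8% of the active genes.

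*Pck1* was the third most densely transcribed active gene of the liver in both genotypes. It lies at chr2:173153048-173159273 (GRCm38, as for all genes here, plus strand, 10 exons). Its gene body held 54127 and 64271 normalized reads in WT1 and WT2, and 19786 and 19691 in KO1 and KO2. The KO libraries lay close together, far below both WT libraries, and the WT libraries differed more from each other than the KO libraries did. The log2 fold change was -1.58 (SE 0.13, limma adjusted p = 1.28e-09).

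*G6pc* lies at chr11:101367561-101377903 (plus strand) and held 24157 and 25759 normalized gene body reads in WT against 8932 and 7742 in KO. The groups did not overlap, and the change was -1.58 (SE 0.12, limma adjusted p = 2.86e-10). By density along the gene body it moved from rank 11 in WT to rank 34 in KO among active genes. *Fbp1*, at chr13:62864753-62888282 (minus strand), held 10076 and 14145 normalized gene body reads in WT against 4488 and 3510 in KO. Its WT libraries were the most uneven of the gluconeogenic enzymes, yet the lower of them stood above 2 times either KO library. The change was -1.59 (SE 0.14, limma adjusted p = 3.78e-09), and the rank went from 106 to 569.

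*Pcx*, at chr19:4510472-4621752 (plus strand, 21 exons), fell less than the other gluconeogenic enzymes. It held 8035 and 6959 normalized gene body reads in WT against 3961 and 3932 in KO, without overlap, a change of -0.92 (SE 0.11, limma adjusted p = 3.90e-07). RefSeq gives *Pcx* a further start 83847 bp downstream of the counted one, so the counted gene body can hold polymerases from both starts. *Lrfn4* overlaps it on the opposite strand.

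*Ppargc1a* had the largest change of the 8. It lies at chr5:51454250-51553922 (minus strand, 13 exons) and held 7414 and 7199 normalized gene body reads in WT against 1770 and 1351 in KO. The WT libraries were nearly equal, and both stood above 4 times either KO library. The change was -2.24 (SE 0.12, limma adjusted p = 3.73e-12), the rank of 51 from the lowest among active genes. Its rank by density went from 2830 to 9908. On the same strand, 3 GENCODE models of unsettled status lie within it and cannot be told apart from it in the counts. The only RefSeq start used here for *Ppargc1a* lies 13803 bp upstream of the counted one. Both counted regions can therefore hold polymerases from that start.

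The genes of sugar uptake and use changed less. *Pklr*, at chr3:89136142-89146594 (plus strand), held 546 and 636 normalized gene body reads in WT against 345 and 360 in KO. The groups did not overlap, and the change was -0.74 (SE 0.14, limma adjusted p = 0.000193). RefSeq gives *Pklr* a further start 481 bp downstream of the counted one, so its counts can hold polymerases from both starts. *Slc2a2*, at chr3:28697903-28731359 (plus strand), held 6887 and 5154 in WT against 4002 and 4054 in KO. WT1 stood above WT2, and both above KO, with a change of -0.56 (SE 0.12, limma adjusted p = 0.000666). The size depended on which WT library was kept. The change was -0.77 without WT2, which passed both thresholds, and -0.36 without WT1 (limma adjusted p = 0.0328), and without KO1 the adjusted p was 0.0504. *Khk*, at chr5:30921431-30931248 (plus strand), held 1104 and 1238 in WT against 1099 and 1055 in KO. Those groups all but touched, with a change of -0.12 (SE 0.12, 95% interval -0.37 to 0.13, limma adjusted p = 0.462), close to the median of active genes.

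The calls of *Pck1*, *Fbp1*, *Pcx* and *Pklr* depended on the restriction to active genes. With all 20642 symbols in the fit, 2 of the 8 genes (*G6pc* and *Ppargc1a*) passed, and the adjusted p of the other called genes lay between 0.0524 (*Pcx*) and 0.0779 (*Fbp1*). The fold changes themselves were the same, and calls also became fewer over all genes. Gene bodies called down were 589 of the 20642 symbols, against 1449 of the 12705 active genes, and those called up 406 against 1324.

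Per kilobase of gene body, the order of the 8 genes spanned more than 2 orders of magnitude. In WT1 and WT2, *Pck1* had 10447 and 12405 normalized reads per kb, *G6pc* 2633 and 2808, and *Fbp1* 448 and 629. *Slc2a2* had 234 and 175, and *Khk* 132 and 148. Then came *Ppargc1a* with 75.1 and 73.0, *Pcx* with 72.9 and 63.1, and *Pklr* with 57.8 and 67.3. The ranges of *Pcx* and *Pklr* overlapped in WT, and those of *Ppargc1a* and *Pcx* almost met.

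In KO1 and KO2 the densities were 3819 and 3801 for *Pck1*, 974 and 844 for *G6pc*, and 200 and 156 for *Fbp1*. *Slc2a2* had 136 and 138, and *Khk* 132 and 126. *Pklr* had 36.5 and 38.1 and *Pcx* 35.9 and 35.7, and *Ppargc1a* had 17.9 and 13.7. The first 5 genes thus kept their order, while *Ppargc1a* went from sixth to last. *Fbp1*, which had been well apart from *Slc2a2* and *Khk* in WT, came near them in KO.

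**Figure D1:**
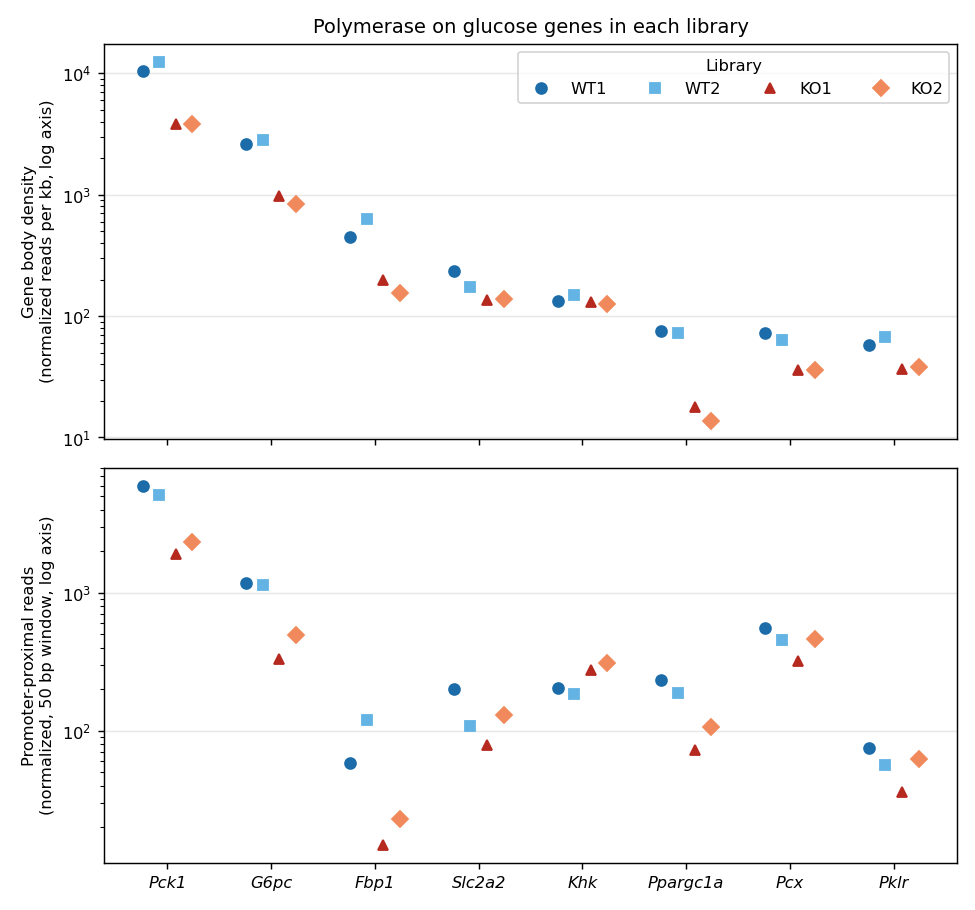
Polymerase on each of the 8 genes in each library, as gene body density in normalized reads per kb (upper panel) and as promoter-proximal normalized reads in the 50 bp window (lower panel), both on log axes. Each point is 1 library (circles and squares WT, triangles and diamonds KO). In the gene body both KO points lie under both WT points for all 8 genes, and at the promoter for 4 of them.

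At the promoter-proximal region, 4 of the 8 genes fell, the gluconeogenic enzymes *Pck1*, *G6pc* and *Fbp1* and the coactivator *Ppargc1a*. None rose, and the median change of the 8 was -0.90. Among active genes, 2.2% were called down and 25.8% up, so the 4 falls ran against the direction most genes took. The size of that general rise depended on the libraries, with a median change of active genes of 0.37 without KO2 and 0.74 without KO1. Both KO libraries lay below both WT libraries for these 4 genes, which was so for 6.72% of active genes.

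*Pck1* had 5956 and 5126 normalized promoter-proximal reads in WT against 1904 and 2326 in KO, a change of -1.39 (SE 0.27, limma adjusted p = 1.22e-05). *G6pc* had 1185 and 1131 in WT against 330 and 496 in KO, a change of -1.51 (SE 0.29, limma adjusted p = 1.14e-05). In both genes the groups stood far apart, and KO2, the library with the highest promoter-proximal share, was the higher KO library. *Fbp1* had 58.5 and 120 in WT against 14.9 and 22.8 in KO, a change of -2.13 (SE 0.39, limma adjusted p = 5.42e-06). These *Fbp1* values rest on 51, 120, 14 and 15 whole reads in the 4 libraries, and without WT2 the adjusted p was 0.0746. *Ppargc1a* had 235 and 189 in WT against 72.1 and 106 in KO, a change of -1.26 (SE 0.33, limma adjusted p = 0.00237). Its groups did not overlap, but the adjusted p was 0.169 without WT1 and 0.0883 without WT2. Leaving out WT2 thus left 2 of the 4 calls, those of *Pck1* and *G6pc*.

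The other 4 genes were not called at the promoter. *Pcx* had 554 and 456 normalized reads in WT against 321 and 466 in KO (change -0.38, SE 0.30, limma adjusted p = 0.314). *Pklr* had 74.6 and 56.0 against 36.1 and 62.3 (-0.44, SE 0.37, limma adjusted p = 0.352), and *Slc2a2* had 201 and 109 against 78.5 and 129 (-0.55, SE 0.34, limma adjusted p = 0.192). In all 3 genes KO1 was the lowest library and KO2 lay within the WT range. *Khk* was the exception in direction, with 203 and 186 in WT against 276 and 310 in KO. Both KO libraries were above both WT libraries, at a change of 0.59 (SE 0.31, 95% interval -0.03 to 1.20, limma adjusted p = 0.135).

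Set against the median change of all active promoters, the same values read differently. *Khk* then stood at 0.03, with the typical gene, and the other 7 genes stood below it, from -0.94 (*Pcx*) to -2.69 (*Fbp1*). When the libraries were scaled by the median of ratios within the promoter-proximal region, which brings that median near 0, 7 of the 8 genes were called down. The calls gained were *Pcx* (-0.95, limma adjusted p = 0.0027), *Slc2a2* (-1.12, limma adjusted p = 0.00653) and *Pklr* (limma adjusted p = 0.0271). Under that scaling 942 active genes were called down and 634 up, against 280 down and 3282 up with the deposited scaling.

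**Figure D2:**
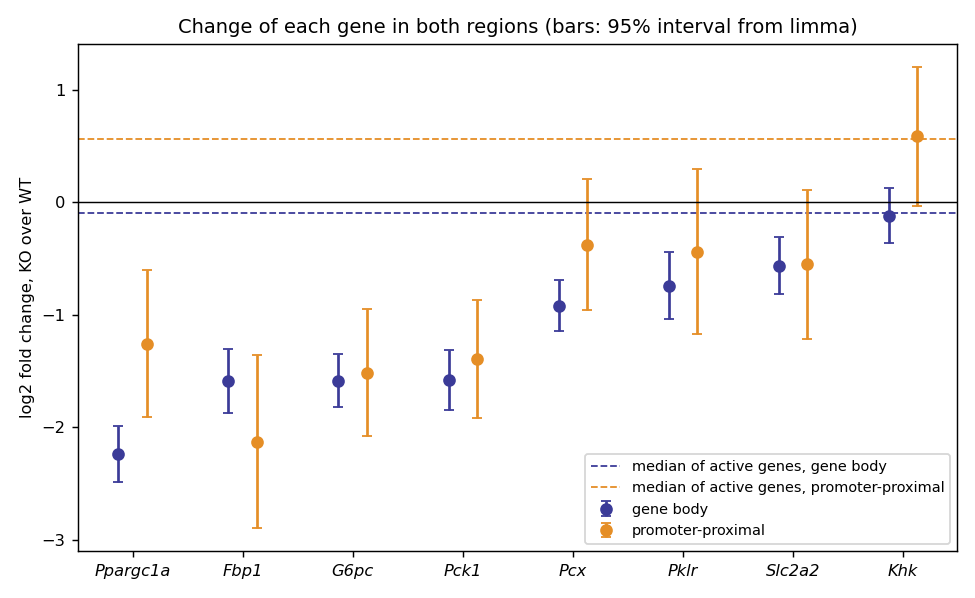
Log2 fold change (KO over WT) of each gene in the gene body and at the promoter-proximal region, with the 95% interval from limma as bars, and the median of the 12705 active genes in each region as dashed lines. The gene body intervals of all genes except *Khk* lie below 0, and the promoter-proximal intervals of *Ppargc1a*, *Fbp1*, *G6pc* and *Pck1* do.

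The pausing index divides promoter-proximal density by gene body density and is high where polymerase gathers near the start. It differed widely among the genes. *Fbp1* had the lowest index in every library, 2.61 and 3.81 in WT and 1.49 and 2.92 in KO, and *Pcx* the highest, 152 and 145 in WT and 179 and 261 in KO. *Pck1*, with 11.4 and 8.26 in WT and 9.97 and 12.2 in KO, lay nearer to *Fbp1* than to *Pcx*. Its WT and KO ranges overlapped.

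None of the 8 indices was called in either direction, where 11.2% of active genes were called up and 0.543% down. Their median change was 0.24 on the log2 scale, and that of active genes was 0.61. *Ppargc1a* moved most, from 62.6 and 51.8 in WT to 80.4 and 155 in KO, a change of 0.98 (SE 0.43, limma adjusted p = 0.0918). The KO libraries lay above WT but far from each other. Without KO1 the change was 1.45 and passed the test (limma adjusted p = 0.0151), and without KO2 it was 0.51 (limma adjusted p = 0.476). *Khk* went from 30.7 and 25.1 to 41.9 and 49.0 (0.70, limma adjusted p = 0.166), and *Pcx* changed by 0.55. For *Pck1*, *G6pc* and *Slc2a2* the changes were 0.19, 0.07 and 0.01, each within 1 SE of 0. *Pklr* changed by 0.30, and *Fbp1*, at -0.54 (SE 0.48, limma adjusted p = 0.384), had the only negative change of the 8, with overlapping groups.

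**Figure D3:**
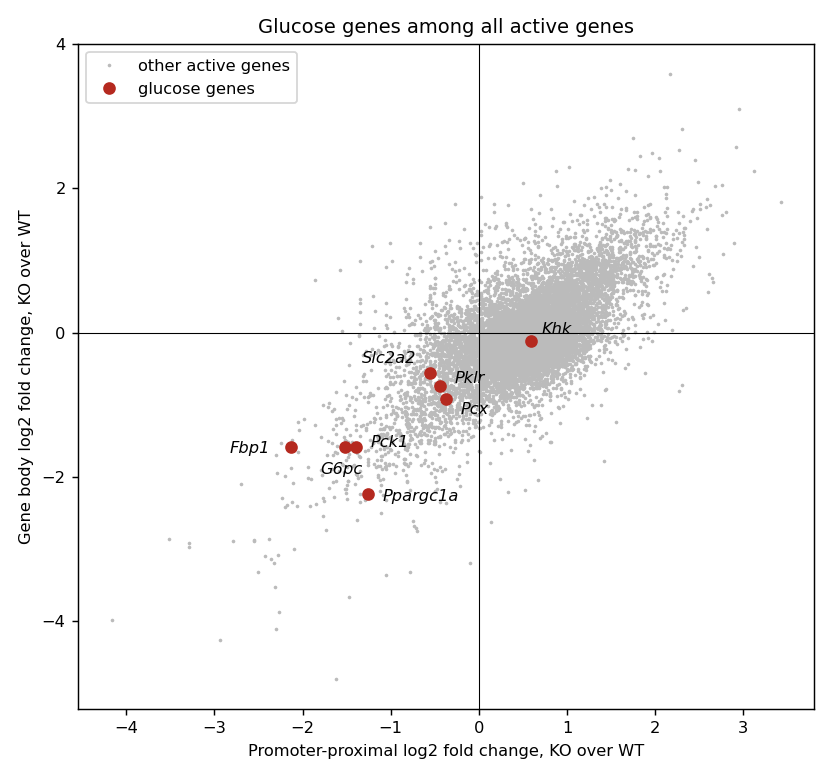
Gene body change against promoter-proximal change (both log2, KO over WT) for the 12705 active genes (grey) and the 8 glucose genes (red, named). Of the 8, 7 lie to the left of 0 on the promoter axis, where 15.8% of active genes lie, and *Khk* sits within the main cloud.

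Liver sugar flux turns on pairs of enzymes that work against each other, and the ratio of their gene body densities within a library does not depend on how libraries are scaled. *Fbp1* over *Pfkl*, the liver phosphofructokinase, was 8.99 and 9.75 in WT and 3.36 and 2.39 in KO. *Pck1* over *Pklr* was 181 and 184 in WT and 105 and 99.8 in KO. In these 2 pairs both KO ratios lay below both WT ratios. *Pcx* over *Pklr*, 1.26 and 0.938 in WT against 0.985 and 0.937 in KO, overlapped between genotypes. The ratios are descriptions without a test, and they compare polymerase density, not enzyme activity. They can still depend on the mix of cells in a library, and the part of the marker shifts in them was not tested.

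**Figure D4:**
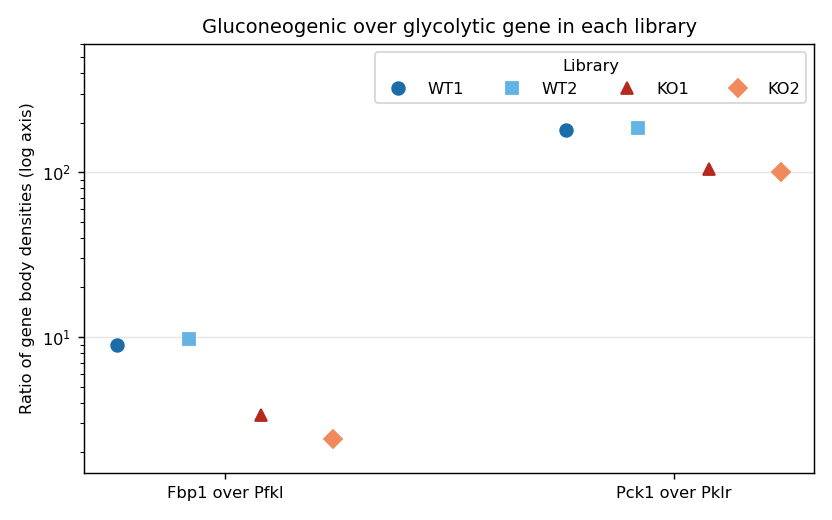
Ratio of gene body densities of a gluconeogenic over a glycolytic gene in each library (log axis, 1 point per library). For both pairs drawn, the KO1 and KO2 points lie below the WT1 and WT2 points. *Pcx* over *Pklr*, which overlapped between genotypes, is not drawn.

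Around these genes, 5 lists of the wider pathway hold 100 genes, 95 of them active. In the gene body 33 (34.7% of the 95) were called down and 6 (6.32%) up, beside 11.4% and 10.4% of active genes, and the median change was -0.40 against -0.09. At the promoter-proximal region 9 (9.47%) were called down and 15 (15.8%) up, beside 2.2% and 25.8% of active genes. Those promoter counts depended on single libraries, and so did the counts over all active genes. The median promoter change of active genes was 0.59, 0.51, 0.74 and 0.37 without WT1, WT2, KO1 and KO2 in turn. With scaling within the region the promoter counts of the lists were 21 down and 4 up.

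Among 22 enzymes of glycolysis and its reversal (19 active, without *Fbp2*, *Aldoc* and *Ldhb*), 1 gene body fell (5.26% of the 19, beside 11.4% of active genes) and 4 rose (21.1%, beside 10.4%). *Hk1*, a hexokinase found mostly outside hepatocytes, rose from 1201 and 1452 normalized reads in WT to 2377 and 2548 in KO. The change was 0.90 (SE 0.12, limma adjusted p = 1.66e-06). Its promoter-proximal window held 0 and 2 normalized reads in WT1 and WT2 and 0 in KO1 and KO2, so it counted as active through WT2 alone. With genes required to be active in every library, the 5 lists together had 4 gene body rises in place of 6. *Pfkp*, the platelet type phosphofructokinase, went from 377 and 383 to 691 and 671 (0.84), and *Pkm2*, the pyruvate kinase of most other tissues, from 1235 and 1501 to 2470 and 2277 (0.80). In each of *Hk1*, *Pfkp* and *Pkm2* both KO libraries lay well above both WT libraries, as did the summed stellate and endothelial markers, whose part in these rises was not tested. At the promoter, 1 of the 19 fell (5.26%, beside 2.2%) and 8 rose (*Pkm2*, *Pfkp*, *Pck2*, *Hk2*, *Gpi1*, *Aldoa*, *Gapdh* and *Pfkl*), which is 42.1% beside 25.8% of active genes.

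The list of partners of glucose handling (11 genes, 10 active, without *Slc2a5*) had 4 gene body falls and no rise, beside 11.4% down and 10.4% up among active genes. *Slc37a4*, which brings glucose phosphate to G6PC in the endoplasmic reticulum, fell from 1263 and 1002 normalized reads in WT to 282 and 345 in KO (-1.85, SE 0.15, limma adjusted p = 8.88e-10). It was also called down at the promoter (-1.43, limma adjusted p = 0.00259), so both parts of the glucose phosphatase system fell in both regions. *Gckr*, a regulator of sugar phosphorylation in hepatocytes, fell from 2183 and 2158 to 914 and 919 (-1.24). *Pfkfb1*, the liver enzyme that makes and removes the allosteric signal fructose-2,6-bisphosphate, fell from 2733 and 1988 to 1027 and 1087 (-1.14), and *Slc2a9*, a urate transporter, from 8698 and 7217 to 4802 and 5109 (-0.68). *Pfkfb4* was called up at the promoter alone. The list thus had 1 promoter fall and 1 rise (10% each), beside 2.2% and 25.8% of active genes.

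Of the 19 genes by which fructose, glycerol, lactate and pyruvate enter the pathway, 11 fell in the gene body (57.9%, beside 11.4% of active genes) and none rose. *Got1*, the cytosolic aspartate transaminase, fell most, from 16909 and 19473 normalized reads in WT to 5296 and 3589 in KO (-2.06, SE 0.14, limma adjusted p = 1.07e-10). It was the only one of the 19 called at the promoter (-1.48), which is 5.26% down, beside 2.2% of active genes. *Glyctk*, glycerate kinase of fructose breakdown, fell from 2610 and 2683 to 945 and 1096 (-1.38). *Slc25a13*, the mitochondrial aspartate and glutamate carrier, fell from 25760 and 23929 to 10412 and 10160 (-1.27). *Gyk* (glycerol kinase, now *Gk*) fell from 7678 and 7007 to 3320 and 3374 (-1.13). The other 7 called were *Slc16a1*, *Got2*, *Mdh1*, *Slc25a11*, *Dak* (*Tkfc*), *Brp44* (*Mpc2*) and *Brp44l* (*Mpc1*), which move lactate, pyruvate, malate or aspartate carbon or, in the case of *Dak*, act after KHK on fructose carbon. *Khk*, the entry step for fructose, was not called, while *Dak* and *Glyctk*, which follow it, were.

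Pyruvate dehydrogenase commits pyruvate to oxidation. Of its 12 subunits, kinases and phosphatases (11 active, without *Pdk3*), 2 gene bodies were called down (18.2%, beside 11.4% of active genes) and none up, with a median change of -0.21. The phosphatase gene *Pdp2* fell (678 and 607 normalized gene body reads in WT, 361 and 401 in KO, -0.75) and so did the kinase gene *Pdk2* (1646 and 1345, 912 and 1001, -0.64). *Pdha1*, a subunit of the E1 enzyme, was called up at the promoter alone (1.27, SE 0.30, limma adjusted p = 0.000441). It was the only promoter of the 11 called, so 9.09% rose, beside 25.8% of active genes.

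Of 36 transcriptional regulators of glucose genes, all active, 15 fell in the gene body (41.7%, beside 11.4% of active genes) and 2 rose (5.56%, beside 10.4%). *Onecut1* (HNF6), a factor of hepatocyte identity, fell from 2696 and 5507 normalized reads in WT to 1080 and 791 in KO (-2.06, SE 0.20, limma adjusted p = 1.96e-08), with WT2 at about 2 times WT1 and both above KO. *Klf15*, a fasting-induced factor of amino acid use, fell from 7414 and 8237 to 2375 and 2739 (-1.61). *Hnf4a*, a nuclear receptor of hepatocyte identity, fell from 17104 and 17557 to 5615 and 6374 (-1.53), and *Nr0b2* (SHP), a repressor of nuclear receptors, from 659 and 437 to 154 and 229 (-1.51). At the promoter 6 of the 36 were called down (16.7%, beside 2.2% of active genes), these 4 together with *Foxa1* and *Foxa2*, the pioneer factors of liver. Another 5 were called up (13.9%, beside 25.8% of active genes), *Nr2f2*, *Trib1*, *Ep300*, *Rora* and *Srebf1*. With the deposited scaling, *Srebf1*, a factor of lipid synthesis, thus moved in opposite directions. Its changes were -0.88 in the gene body and 0.89 at the promoter (SE 0.30, limma adjusted p = 0.0191). Set against the median change of active genes in each region, they stood at -0.79 and 0.33, so much of the promoter rise was shared with the typical gene. The other gene body falls included *Prox1*, *Cebpb*, *Foxa2*, *Ppara*, *Srebf1*, *Foxa1*, *Foxo1*, *Cebpa* and *Ppargc1b*, and the rises were *Nr1d1* and *Nr2f2*. *Creb1* and *Crtc2*, genes of the CREB branch of the fasting response, were not called in the gene body, at 0.13 (SE 0.11) and -0.13 (SE 0.13). These values describe transcription of the genes themselves and do not measure the activity of their proteins or of the branch. Hepatocyte marker sums moved down with these falls, and their part was not tested.

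**Figure D5:**
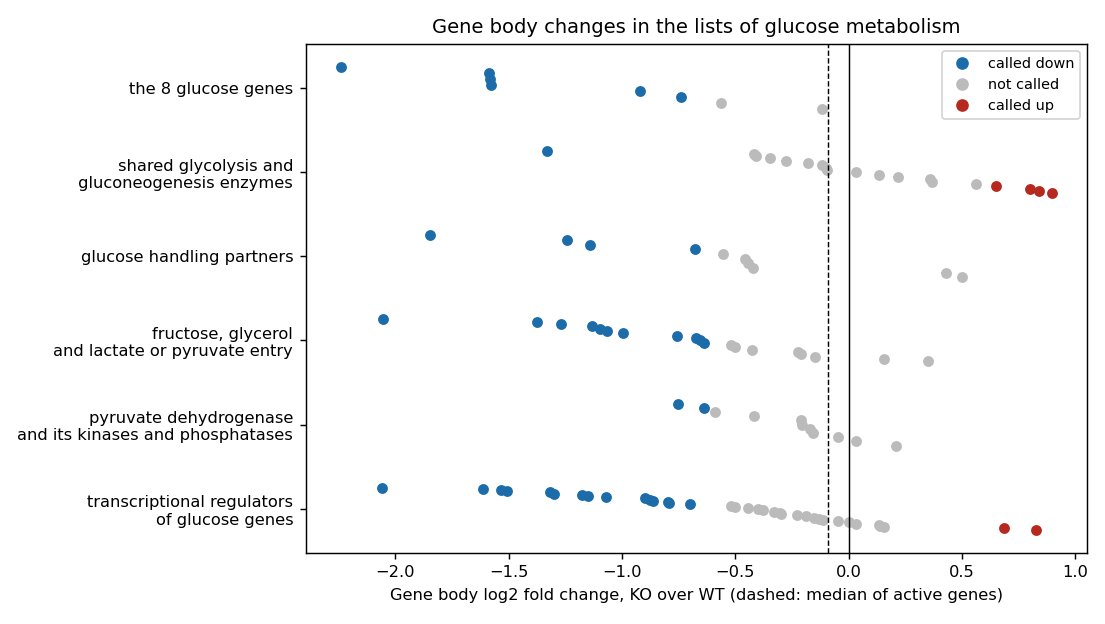
Gene body log2 fold change (KO over WT) of every active gene in the 8 and in the 5 lists, 1 point per gene, coloured by call, with the median of active genes as a dashed line. Calls down are spread over all 5 lists, while 4 of the 6 calls up are enzymes of glycolysis and its reversal.

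Among the 95 active genes of the lists, the one whose gene body pattern over the 4 libraries came closest was found for each of the 8, after each gene was centred on its own mean. The measure was the root mean square difference in log2 units, which mostly reflects the difference between 2 pairs of libraries. *Pck1* was nearest to *Klf15* (0.084), *G6pc* and *Fbp1* to *Prox1* (0.14 and 0.22) and *Ppargc1a* to *Got1* (0.14). *Pcx* was nearest to *Mdh1* (0.047), *Pklr* to *Cebpa* (0.049), *Slc2a2* to *Brp44* (0.049) and *Khk* to *Eno1*, an enolase (0.034).

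The authors also listed 2282 enhancers, called from polymerase on both strands in the pooled libraries. The list gives positions and linked genes, and enhancer levels per library were not analysed here. Among them 5 have 1 of the 8 genes as the closest gene. *G6pc* has chr11:101360839-101364252, upstream of the gene at a listed distance of 3478 bp, which is also in the FANTOM5 catalogue. *Fbp1* has chr13:62906512-62909814, upstream at 18276 bp and in FANTOM5, and a farther one at chr13:62682606-62685446. *Ppargc1a* has chr5:51390660-51392223 and chr5:51287116-51289070, downstream at listed distances of 161698 and 264851 bp. *Pck1*, *Pcx*, *Pklr*, *Slc2a2* and *Khk* have none listed as closest or within 50 kb. The paper describes the list as intergenic, and transcripts within or close around any RefSeq gene were left out before calling. Enhancers in those places could therefore not be listed at any strength. Whether weaker enhancers elsewhere near these genes missed the threshold of the list was not tested.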

How the data were processed

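PRO-seq was compared between 2 WT and 2 *Hdac3* KO liver libraries, grouped by the labels. The authors trimmed reads with cutadapt, aligned them to mm10 with Bowtie2 and counted them per transcript with their NRSA tool. The deposited values are normalized signal, the counts multiplied by 1 factor per library, and those of WT2, with a factor of 1, are the authors' counts. Other deposited columns hold positions, distances and gene links of enhancers, used only as descriptions. Dividing by the factors recovered whole reads for 100% of the 41640 values per library (tolerance 0.01 reads).

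Where a symbol has several transcripts, that with most promoter-proximal signal was used. Active genes had promoter-proximal reads and over 4 normalized gene body reads per kb. The main test was limma 3.58.1 (trend, no block, R 4.3.3) on log2(normalized reads + 1), which shares the spread across genes. With edgeR 4.0.16 and DESeq2 1.42.0 the recovered reads were tested as alternatives. For the pausing index, (promoter-proximal + 1) over (gene body + 1) reads was tested on the log2 scale. The limma, edgeR and DESeq2 steps were tested on simulated data of 12705 genes. Gene models came from GENCODE vM21 on GRCm38, matched through RefSeq transcripts. The replicate libraries differed by more than sampling noise.

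The 8 genes and the pathway and marker lists were chosen with earlier results of these data known. Named from each list were up to 4 called genes by absolute gene body change. *Pfkl*, *Creb1*, *Crtc2* and the further called genes listed by name were added after their values were seen. Some genes counted in the lists are not reported here by name. The sources used here do not say whether same-numbered libraries were prepared together. The correlation of their deviations was 0.019 in gene bodies and -0.11 at promoters, which cannot settle this with so few libraries. The main test used no block, and blocks by number were run as alternatives. Counting precision is not the main limit in gene bodies, where every gene of the 8 had at least 237 reads per library.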

Additional observations from a re-analysis of the deposited data

How the results depend on the processing

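Of 424 comparisons of the 8 genes with an alternative, 386 kept direction and call, 13 lost a call and 13 gained one. The other 12 changed sign, all in the pausing index. Some comparisons could hardly differ, so the count of 386 overstates the agreement. Each of the 8 genes has 1 transcript, so the choice of transcript left its values as they were. Both median-of-ratios scalings gave the same gene body fits, and the variants of the fold threshold reused the main fit. Without the filter on activity, calls down were 2 in gene bodies and 0 at promoters among the 8 genes, and in the lists 14 down and 1 up in gene bodies and 0 and 0 at promoters. Over all 20642 symbols that fit called 589 gene bodies down and 406 up, and 0 promoters in either direction. With an absolute log2 fold change over 1, the lists had 19 gene bodies down and 0 up, and with no threshold on it 10 up. Promoter calls down among the 8 genes were 7 with scaling within the region and 7 with edgeR and TMM scaling. The lists then had 21 down and 4 up with scaling within the region, 21 and 4 with edgeR and TMM, and 20 and 3 with DESeq2 and its own size factors. The replicate block, which pairs libraries by number, gave 5 down and 9 up in the lists, and a crossed replicate block, added after seeing the data, 23 up. Neither block changed a gene body or promoter call of the 8 genes, and the crossed one called 1 pausing index up (*Ppargc1a*), as did a pseudocount of 10 (1). Leaving out 1 library gave 2 to 4 promoter calls down and 0 to 1 pausing index calls up among the 8 genes, and 2 to 5 promoter calls down and 2 to 15 up in the lists. The *Hdac3* promoter change was -0.19 with scaling within the region, -0.073 without KO2, -0.17 with edgeR and TMM and -0.17 with DESeq2 and its own size factors, and leaving out 1 library gave -0.073 to 0.83.

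Pausing index changes with the opposite sign were -0.47 (*Pck1*), -0.58 (*G6pc*), -0.11 (*Pcx*), -0.34 (*Pklr*) and -0.63 (*Slc2a2*) with scaling within each region, which sets the rise of all promoters to 0 by construction. Without WT2 or KO2 the sign also turned for some, and leaving out 1 library in turn gave -0.045 to 0.42 (*Pck1*), -0.33 to 0.47 (*G6pc*), -0.052 to 0.66 (*Pklr*) and -0.33 to 0.36 (*Slc2a2*). Apart from those scalings, the cause was not tested. Promoter reads were few at *Fbp1* and *Pklr*, which limits those calls, and 2 pools per genotype limit all of them.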
